A study of Arabidopsis thaliana with 22 samples.

Results

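RNA polymerase IV (Pol IV), whose largest subunit is NRPD1, held a called ChIP-seq peak in both zmp-2 mutant libraries but in only 1 of the 2 wild type (WT) libraries at 505 regions of the 5 nuclear chromosomes of Arabidopsis thaliana. These partly gained regions were defined by the peak calls themselves. Overlapping peaks of the 4 NRPD1-HA lists were joined into regions, and regions touched by a peak from the paired transgene-free plants (2 libraries) were dropped. That left 8688 of 9269 merged regions, of which the 505 partly gained regions were 5.81%. The WT peak stood in replicate 1 at 159 of them and in replicate 2 at 346. Before the removal of control peaks there were 520, so that 15 were lost to it. No member was removed for a low value.

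The study immunoprecipitated chromatin of inflorescences of the Col-0 ecotype, grown in long days. WT and zmp-2 plants both carried NRPD1-HA, a haemagglutinin-tagged NRPD1 expressed from the NRPD1 promoter, and an anti-HA antibody was used for 2 biological replicates of each genotype. zmp-2 is a T-DNA insertion allele of ZMP, and the methods describe a line for each tagged protein. The other lists came from WT plants without a transgene (2 libraries processed beside NRPD1-HA, for which the labels name no antibody, and 2 processed beside ZMP-HA with anti-HA), from WT plants carrying ZMP-HA under the ZMP promoter (2 libraries), and from 1 WT library of histone H3 trimethylated at lysine 4 (H3K4me3). Of 10 floral organ and meristem genes, 7 (AG, AP1, PI, SEP1, SEP2, SEP3 and SUP) had an H3K4me3 peak within 500 bases of the 5′ end, and AP3, LFY and WUS had none.

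Pol IV starts RNA-directed DNA methylation. It transcribes short RNAs from transposons and other repeats, RDR2 copies them into double strands, and DCL3 cuts these into small interfering RNAs that guide DNA methylation by DRM2. Pol IV finds its targets through partner proteins, among them SHH1, a reader of histone H3 methylation, and the CLSY chromatin remodellers. ZMP is a chromatin-associated protein that interacts with Pol IV. H3K4me3 marks the 5′ ends of transcribed genes.

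Members were numbered by the fold enrichment in the zmp-2 lists, R1 being the region whose worse rank over both lists was best. Most named members were chosen by this rank, so high mutant values in them follow from the choice. The 200 bases around the strongest zmp-2 summit are shown for 4 members, because they are strong in the mutant and lie beside genes without overlapping an untranslated exon. The letters are those of the RefSeq TAIR10.1 forward strand, and capitals mark the stretch between the outermost of the 3 called summits.
R1 (chr4:7827854-7828053): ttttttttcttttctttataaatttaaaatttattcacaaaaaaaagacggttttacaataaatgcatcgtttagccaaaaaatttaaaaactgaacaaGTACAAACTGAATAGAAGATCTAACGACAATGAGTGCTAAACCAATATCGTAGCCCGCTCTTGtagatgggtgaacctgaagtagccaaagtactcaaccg
R5 (chr2:6668086-6668285): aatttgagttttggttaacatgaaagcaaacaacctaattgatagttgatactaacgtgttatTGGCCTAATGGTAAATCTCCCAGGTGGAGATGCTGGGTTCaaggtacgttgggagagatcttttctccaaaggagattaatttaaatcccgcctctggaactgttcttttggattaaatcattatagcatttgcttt
R18 (chr4:595336-595535): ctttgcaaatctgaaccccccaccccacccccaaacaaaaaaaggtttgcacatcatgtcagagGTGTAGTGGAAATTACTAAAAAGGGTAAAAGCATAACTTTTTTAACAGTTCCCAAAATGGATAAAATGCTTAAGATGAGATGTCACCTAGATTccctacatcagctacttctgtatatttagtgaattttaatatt
R22 (chr3:7880816-7881015): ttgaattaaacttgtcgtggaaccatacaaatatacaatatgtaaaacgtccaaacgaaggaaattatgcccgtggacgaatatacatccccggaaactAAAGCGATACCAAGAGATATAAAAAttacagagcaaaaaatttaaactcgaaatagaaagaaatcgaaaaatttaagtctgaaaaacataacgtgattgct
The stretch was 63 bases in R1, 40 in R5, 93 in R18 and 25 in R22, so that the WT and mutant summits fell on the same sequence in each. None of R5, R18 and R22 had another match in the genome at 80% identity over 100 bases, and R1 had 1.

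R1, at chr4:7827637-7828364, was the best ranked partly gained region. It lay 633 bases upstream of the 5′ end of SUVH9 (AT4G13460), which encodes a SET-domain protein that binds methylated DNA and helps to recruit Pol V. Its fold enrichment was 2.48 in WT replicate 1, 10.6 in zmp-2 replicate 1 and 14.8 in zmp-2 replicate 2, with no peak in WT replicate 2. Both mutant values were over the single WT value, and R1 overlapped no ZMP-HA and no H3K4me3 peak, although the SUVH9 5′ end carried H3K4me3. R5, at chr2:6667799-6668529, lay beside the 5′ end of the leucine-rich repeat gene AT2G15320. Its fold enrichment was 5.19 in WT replicate 1, 9.42 in zmp-2 replicate 1 and 9.52 in zmp-2 replicate 2, and it lay on a ZMP-HA site, where ZMP-HA replicates 1 and 2 were enriched 3.63- and 3.68-fold. R18, at chr4:595101-595767, was upstream of UMAMIT31 (AT4G01440), a member of a family of amino acid and metabolite transporters. It had a fold enrichment of 2.83 in WT replicate 2, 5.22 in zmp-2 replicate 1 and 9.42 in zmp-2 replicate 2. R22, at chr3:7880630-7881254, was upstream of AT3G22290, annotated as an endoplasmic reticulum vesicle transporter, with 2.67 in WT replicate 2, 4.96 in zmp-2 replicate 1 and 7.36 in zmp-2 replicate 2.

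The best ranked pair of members with a shared sequence is shown because both copies were called partly gained. R2, at chr5:5288172-5288949 downstream of AT5G16200, and R15, at chr2:12242736-12243509 downstream of AT2G28570, matched each other at 97.5% identity over 199 bases, marked in capitals.
R2 (chr5:5288440-5288639): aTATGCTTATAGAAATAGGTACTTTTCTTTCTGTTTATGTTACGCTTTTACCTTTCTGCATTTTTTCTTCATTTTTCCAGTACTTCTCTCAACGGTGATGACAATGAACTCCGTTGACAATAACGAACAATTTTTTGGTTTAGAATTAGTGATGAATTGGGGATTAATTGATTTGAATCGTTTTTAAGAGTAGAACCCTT
R15 (chr2:12242989-12243188): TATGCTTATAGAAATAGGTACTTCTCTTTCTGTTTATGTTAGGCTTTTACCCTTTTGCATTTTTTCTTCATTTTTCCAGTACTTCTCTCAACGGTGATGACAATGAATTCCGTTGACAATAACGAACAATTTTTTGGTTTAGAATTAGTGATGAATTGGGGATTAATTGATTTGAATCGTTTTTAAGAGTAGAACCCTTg
Each window had 3 other matches in the genome, both had their WT peak in replicate 1, and both overlapped a ZMP-HA site. Reads of copies this alike can align to more than 1 of them, so it is uncertain which copy gave the signal. The fold enrichment of R2 was 4.42 in WT replicate 1, 10.2 in zmp-2 replicate 1 and 13.9 in zmp-2 replicate 2. For R15 these values were 2.69, 5.54 and 8.77, and it also overlapped an H3K4me3 peak.

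The call patterns put the 505 regions among the other combinations of the 4 lists. A peak in all 4 lists was found at 4138 regions (here "kept"), and in both zmp-2 lists and no WT list at 414 (zmp-2-only). The mirror image of partial gain, a peak in both WT lists and exactly 1 zmp-2 list, was found at 565 regions (partly lost), of which 522 had their zmp-2 peak in replicate 2 and 43 in replicate 1. Of the 5057 regions with a peak in both zmp-2 lists, 9.99% were partly gained. Among regions with 1 list of each genotype, 632 had their peaks in both replicate 2 lists and 59 in both replicate 1 lists, 68 in WT replicate 1 and zmp-2 replicate 2, and 10 in WT replicate 2 and zmp-2 replicate 1.

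**Figure D1:**
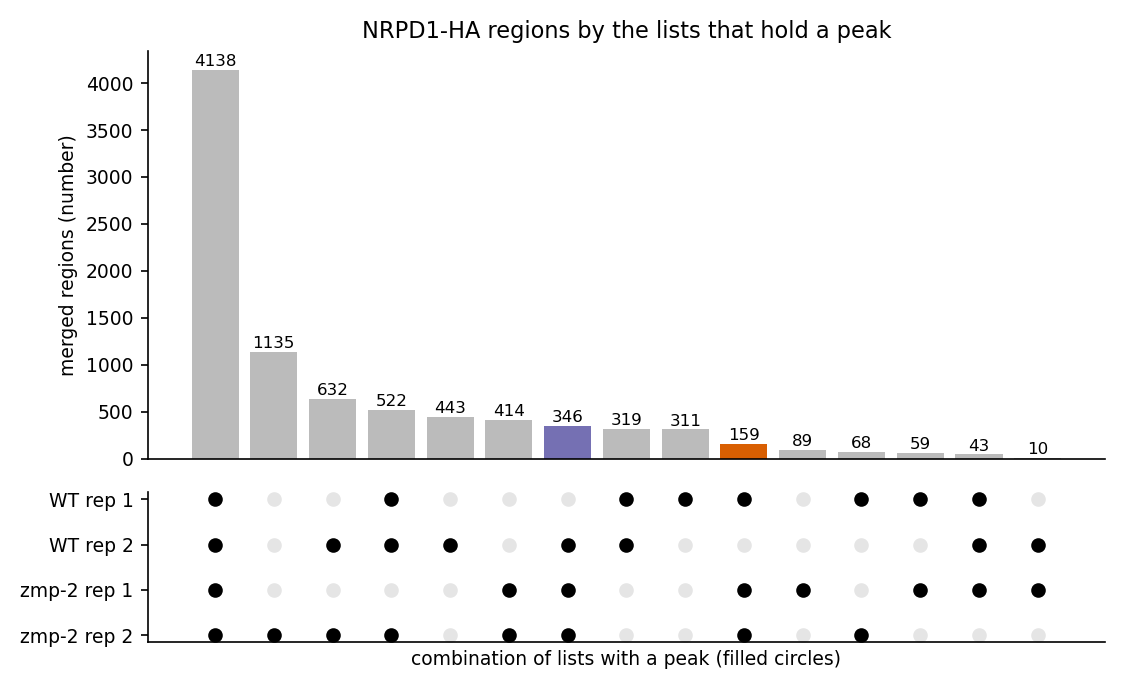
Number of merged NRPD1-HA regions (vertical axis) for each combination of the 4 lists that hold a peak (filled circles). The purple bar is the 346 partly gained regions with a WT peak in replicate 2, the orange bar the 159 with a WT peak in replicate 1, and the tallest bar the 4138 regions of all 4 lists.

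Replicate 2 was the deeper library in both genotypes. The background coverage shared by most peaks, recovered from the fold enrichments and p-values of the lists, was 25.02 fragments per base in WT replicate 1 and 41 in WT replicate 2, 1.64 times as deep. It was 26.6 in zmp-2 replicate 1 and 38.7 in zmp-2 replicate 2, so that the genotypes were close at the same replicate number (zmp-2 over WT, 1.06 and 0.944). A deeper library can call a weaker peak: the lowest fold enrichment called at the usual background was 1.58 in WT replicate 1 and 1.43 in WT replicate 2. Of the 346 members with a WT peak in replicate 2, 343 had a fold enrichment there above the 1.58 limit of replicate 1, and all 159 members with a WT peak in replicate 1 had one above the 1.43 limit of replicate 2. Most were below the middle of the other list: 39 of the 346 (11.3%) were above the median fold enrichment of the WT replicate 1 list (3.69), and 58 of the 159 (36.5%) above that of WT replicate 2 (3.095). The 2 WT lists were not on the same scale. In kept regions the median log2 ratio of WT replicate 2 to replicate 1 was 0.32 below 25% GC and -0.71 at 45% or more. These counts therefore do not show which peaks the other list could have called. With the 4 lists cut to the same 7012 peaks by p-value, 468 members remained under the rule, 70.5% of them with the WT peak in replicate 2, against 68.5% with the full lists. Of these 468, 94.9% overlapped a member of the full lists.

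The fold enrichments of the NRPD1-HA lists chose the members and are given as a description, without a test. Partly gained regions were weaker than kept regions in every list that held their peak. In the 159 regions with a WT peak in replicate 1, the median fold enrichment of the strongest peak was 2.77 in WT replicate 1 (range 1.58 to 8.34), 2.90 in zmp-2 replicate 1 (1.59 to 11.3) and 2.70 in zmp-2 replicate 2 (1.43 to 14.8). In the 346 regions with a WT peak in replicate 2, it was 2.64 in WT replicate 2 (1.5 to 5.86), 2.72 in zmp-2 replicate 1 (1.52 to 9.71) and 4.59 in zmp-2 replicate 2 (1.47 to 14.3). The interquartile ranges of WT and zmp-2 overlapped in the first subset. In the second, the zmp-2 replicate 2 range (3.56 to 5.59) lay above that of WT replicate 2 (2.29 to 3.21). In kept regions the medians were 5.00, 4.21, 4.02 and 5.30 in WT replicates 1 and 2 and zmp-2 replicates 1 and 2.

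**Figure D2:**
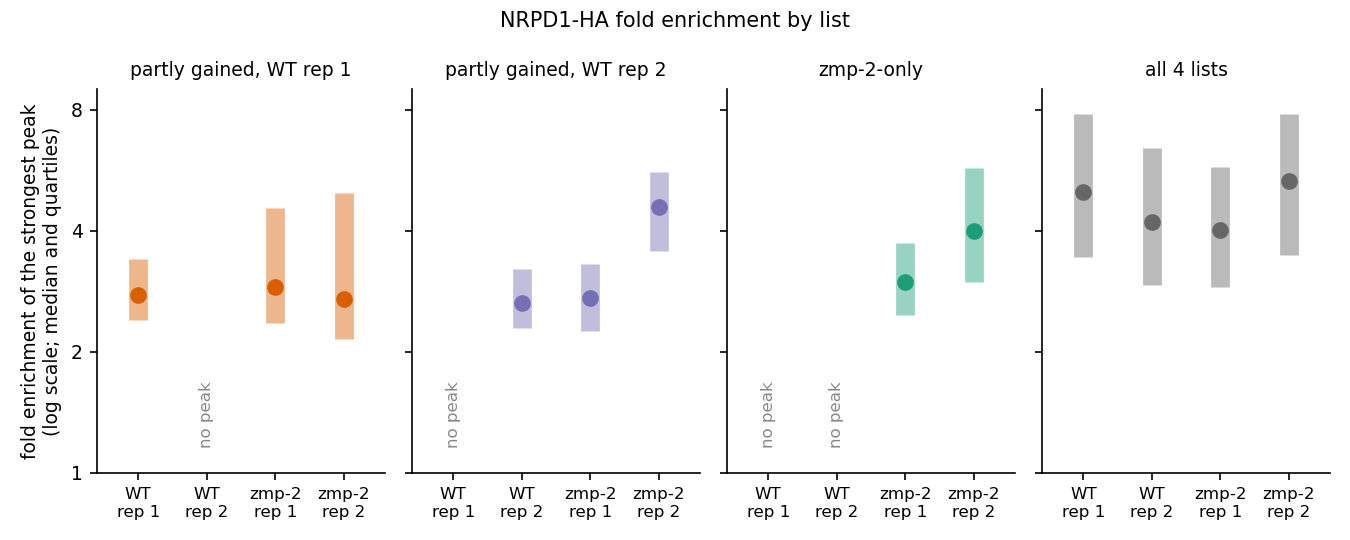
Fold enrichment of the strongest NRPD1-HA peak per region (log scale) in each of the 4 lists, with the median (point) and quartiles (bar) over the regions of 4 classes. In the regions with a WT peak in replicate 2, zmp-2 replicate 2 (median 4.59) stands above WT replicate 2 (2.64), while in those with a WT peak in replicate 1 the 3 lists have medians between 2.70 and 2.90.

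Compared at the same replicate number, the ratio of mutant to WT differed between the subsets, as it did between replicate numbers in kept regions. With the WT peak in replicate 2, the zmp-2 replicate 2 value was the larger at 329 of 346 regions (95.1%), with a median ratio of 1.63. With the WT peak in replicate 1, the zmp-2 replicate 1 value was the larger at 99 of 159 regions (62.3%), with a median ratio of 1.08. In kept regions these ratios were 1.22 for replicate 2 (73.8% of regions over 1) and 0.797 for replicate 1 (23.3%). The libraries therefore also differed by replicate number in regions that both genotypes held. As median log2 ratios, members stood at 0.11 and kept regions at -0.33 for replicate 1, against 0.70 and 0.29 for replicate 2. Members thus stood above kept regions by a similar amount in both subsets. The kept ratios varied with GC content. For replicate 2 at 25 to 30% GC the median log2 ratio was 0.43 in kept regions (85.2% above 0) and 0.73 in members (97.9%). At 40 to 45% GC it was 0.18 in kept regions and 0.19 in 13 members. For replicate 1 at 35 to 40% GC it was -0.33 in kept regions and 0.23 in members. Within the replicate 1 subset, the 44 regions on a ZMP-HA site had a median log2 ratio of -0.16, with the mutant value the larger at 17. The 115 without a ZMP-HA site had a median of 0.19, with the mutant value the larger at 82. The median GC content of these 44 and 115 regions was 42.8% and 38%, and its part in the difference was not tested. Both ratios are conditional on the rule.

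**Figure D3:**
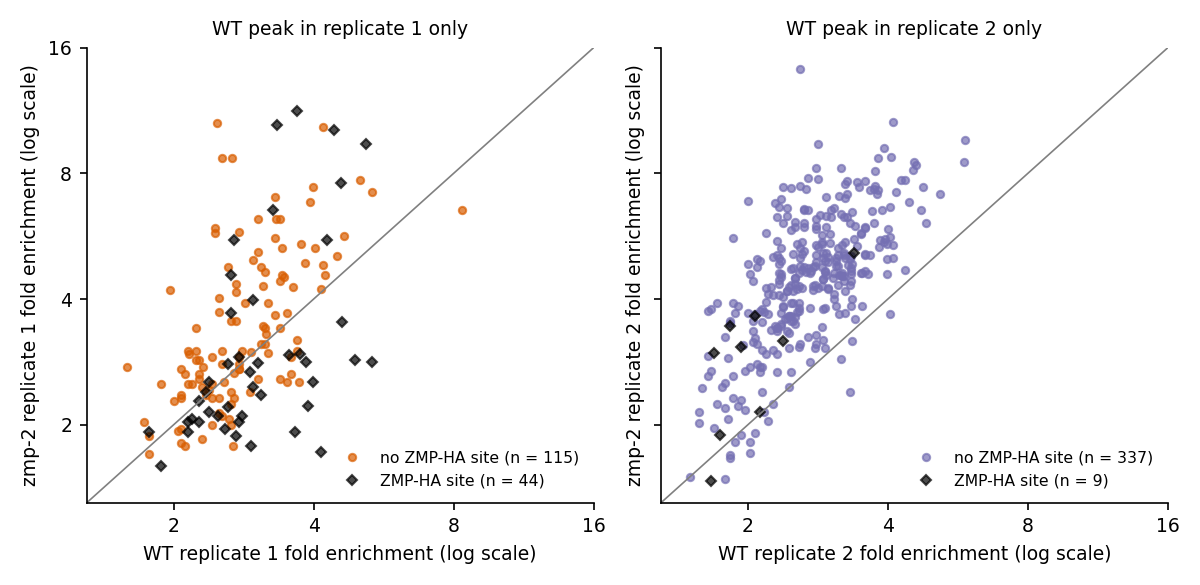
Fold enrichment in zmp-2 (vertical) against WT (horizontal) at the same replicate number, both on log scales, for each partly gained region, with equality as the grey line. In the left panel (WT peak in replicate 1) 99 of 159 points lie above the line, and of the 44 regions on a ZMP-HA site (diamonds) 17 do. In the right panel (replicate 2) 329 of 346 lie above.

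By the worse rank over the 2 zmp-2 lists, the best ranked members came mostly from the replicate 1 subset and the bulk from replicate 2. In zmp-2 replicate 2 alone, the replicate 2 subset had the higher median fold enrichment (4.59 against 2.70). Of the 10 best ranked members, 9 had their WT peak in replicate 1, of the best 50, 31 did, and of the best 100, 38 did. The exception among the best 10 was R3, at chr5:17469262-17469937, whose summit lay in an untranslated exon of ARP9 (AT5G43500, an actin-related protein) 102 bases inside its 5′ end. R3 had a fold enrichment of 2.60 in WT replicate 2, 9.71 in zmp-2 replicate 1 and 14.3 in zmp-2 replicate 2. R4, at chr4:7318175-7319252, had its summit in an intron of CYP706A7 (AT4G12330), a cytochrome P450, with 2.54 in WT replicate 1, 8.69 in zmp-2 replicate 1 and 12.1 in zmp-2 replicate 2. R6, at chr4:14245527-14246209, had its summit in an untranslated exon of XTH26 (AT4G28850), an enzyme that remodels cell wall xyloglucan, with 2.67, 8.69 and 9.42 in the same lists. In R4 and R6 both mutant values were above the WT value, which the choice by mutant rank favours. R13, at chr1:3572766-3573464 in an untranslated exon of AT1G10745, had 4.095 in WT replicate 2, 5.65 in zmp-2 replicate 1 and 10.6 in zmp-2 replicate 2. R21, at chr4:5086927-5087549 in a pericentromeric window, was over 1 kb from a protein-coding gene and within 500 bases of the 5′ end of the pseudogene AT4G08110. R21 had 2 in WT replicate 2, 5.40 in zmp-2 replicate 1 and 6.85 in zmp-2 replicate 2. Loss of the call in the other WT list became rarer above a fold enrichment of 3 in WT replicate 2 and was level below it. Of the regions with a peak in both zmp-2 lists and a WT replicate 2 fold enrichment of 2 to 2.5, 17.9% (98 of 548) lacked a WT replicate 1 peak, and 17.5% (90 of 513) at 2.5 to 3. That share was 1.96% (21 of 1074) at 4 to 6, and 0 of 1188 above 6, which allows a share of up to 0.310% (exact 95% interval). In the other direction, 14.1% (43 of 304) of regions with a WT replicate 1 value of 2 to 2.5 lacked a WT replicate 2 peak, and 1.53% (17 of 1111) at 4 to 6.

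The regions at the edge of the rule were chosen by the low significance of a WT peak. The members whose WT peak was least significant were R221, at chr2:19432421-19433553 (−log10 q of 1.88 in WT replicate 1), R502, at chr5:10518173-10519144 (2.01 in WT replicate 2), and R479, at chr2:6103407-6103979 (2.55 in WT replicate 1). The kept regions just outside, with the least significant second WT peak, were chr3:13631546-13632542 (1.46), chr5:12247874-12250720 (1.53) and chr3:13056951-13058488 (1.601). Regions were made by joining overlapping peaks, so that shared bases within a region largely follow from the rule. All lists with a peak in the region shared at least 1 base at 494 of 505 members (97.8%), 99.1% of kept and 94.3% of partly lost regions. The zmp-2 summits were a median of 38 bases apart in members, 49 in kept and 32 in zmp-2-only regions. In members the WT summit was a median of 36 bases from that of the same-numbered mutant library. Members were narrower (median width 704 bases) than kept (1379.5) and partly lost regions (1274) and wider than zmp-2-only regions (599). A peak of the WT list that lacked the call lay within 1 kb of 61 members (12.1%). These were 31 of 159 in the replicate 1 subset (19.5%) and 30 of 346 in the replicate 2 subset (8.67%). The share has no counterpart in the other region classes.

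Features that the rule did not use were compared between region classes with two-sided Fisher's exact tests, adjusted over 16 tests by the Benjamini-Hochberg method. Regions are not replicates: all classes come from the same 4 libraries, and with 2 libraries a genotype the smallest two-sided exact p over libraries is 0.33. The tests therefore compare sets of regions and not the genotypes. Intervals are exact 95% intervals and cover counting error over regions only.

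A ZMP-HA site was a stretch called in both ZMP-HA lists but in neither of that experiment's control lists. Over all 8688 merged NRPD1-HA regions 34.9% overlapped such a site. Partly gained regions did so at 53 of 505 (10.5%), less often than kept regions (2134 of 4138, 51.6%; odds ratio 0.110, interval 0.0807 to 0.148, adjusted exact p = 2.2e-76) and partly lost regions (204 of 565, 36.1%; odds ratio 0.208, 0.146 to 0.292, adjusted exact p = 6.7e-23). They did so more often than zmp-2-only regions (8 of 414, 1.93%; odds ratio 5.94, 2.76 to 14.7, adjusted exact p = 1.9e-07), and still passed when a library was left out: the odds ratio was 3.23 with zmp-2 replicate 1 left out, 3.175 with zmp-2 replicate 2 and 3.235 with ZMP-HA replicate 2. Against partly lost regions the odds ratio was 0.116 with lists of equal length, 0.338 in the arms and 0.0683 with the replicate block, all past the test. The members were split by WT replicate. A ZMP-HA site was overlapped by 44 of 159 regions with the WT peak in replicate 1 (27.7%) and by 9 of 346 with it in replicate 2 (2.60%), with an odds ratio of 14.2 (6.60 to 34.2, adjusted exact p = 1.1e-15). That odds ratio was 4.63 with strata of GC content, 21.5 with strata of the zmp-2 replicate 1 fold enrichment, 7.99 when zmp-2 replicate 1 was left out and 9.41 when ZMP-HA replicate 2 was, all past the test. A peak of either ZMP-HA list lay on 73 (45.9%) and 27 (7.80%) of these regions. On the sites the ZMP-HA fold enrichment was moderate, with medians of 2.51 and 2.21 in the ZMP-HA replicates against 2.94 and 2.57 at kept regions. The strongest ZMP-HA signal among the 5 members named for a ZMP-HA site was that of R14, at chr5:17889993-17890783 downstream of AT5G44410, with 4.89 and 4.34. R14 had an NRPD1-HA fold enrichment of 3.34 in WT replicate 1, 10.5 in zmp-2 replicate 1 and 7.48 in zmp-2 replicate 2. R8, at chr5:19829808-19830460, had 3.69, 11.3 and 8.79 in the same libraries.

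**Figure D4:**
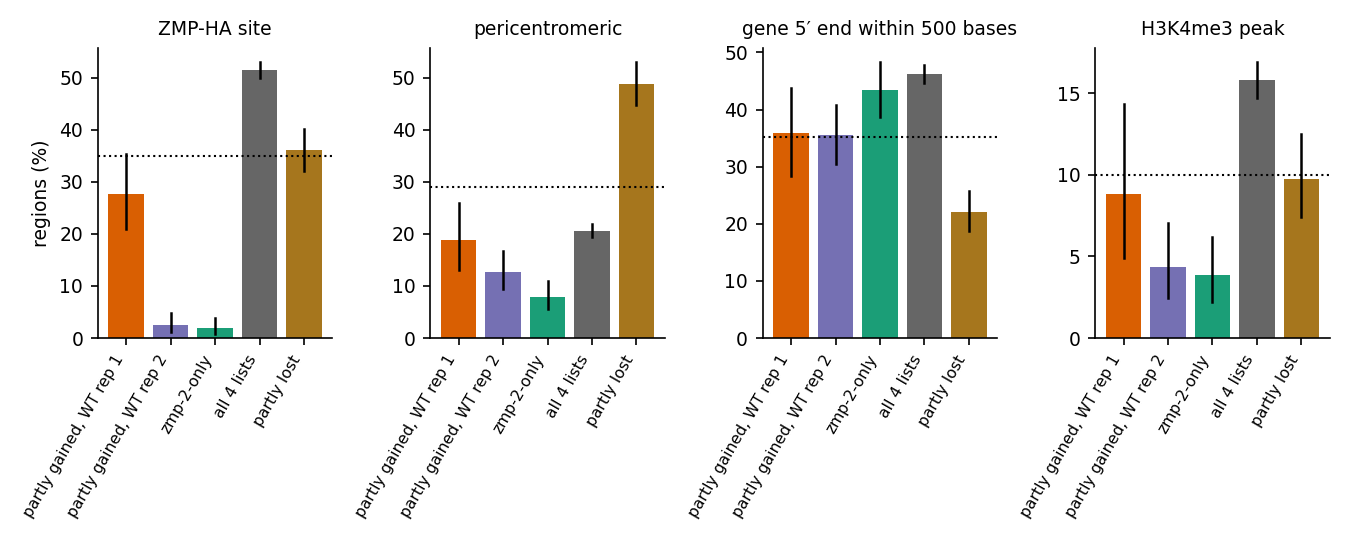
Share of regions (%) with each of 4 features, for the partly gained regions by WT replicate and for 3 other classes; black lines are exact 95% intervals and dotted lines the share over all 8688 regions. ZMP-HA sites lie on 27.7% of the replicate 1 subset and 2.60% of the replicate 2 subset, and pericentromeric windows hold 48.8% of partly lost regions.

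Most partly gained regions lay in the chromosome arms. Windows of low gene density around each centromere, 14.4% of the 5 chromosomes, held 74 of 505 members (14.7%) and 29% of all merged regions. The share was lower than in partly lost regions (276 of 565, 48.8%; odds ratio 0.180, 0.132 to 0.244, adjusted exact p = 4.0e-33) and higher than in zmp-2-only regions (33 of 414, 7.97%; odds ratio 1.98, 1.27 to 3.16, adjusted exact p = 0.00295). Without zmp-2 replicate 1 the latter odds ratio was 1.21 and did not pass. At a gene density limit of 25% the former was 0.114 and passed. Against kept regions (850 of 4138, 20.5%) the odds ratio was 0.664 (0.506 to 0.862, adjusted exact p = 0.00252), but it was 0.863 with strata of GC content, 0.981 with a reciprocal overlap of 50%, 0.852 without zmp-2 replicate 2 and 1.011 without zmp-2 replicate 1, none of which passed the test, and 0.379 with strata of the zmp-2 replicate 1 fold enrichment, which did. Between the WT replicates the shares were 18.9% and 12.7% (odds ratio 1.595, 0.924 to 2.73, adjusted exact p = 0.0897), a difference that did not pass. It turned with strata of GC content (0.626, not passed) and passed without zmp-2 replicate 2 (2.13) and without zmp-2 replicate 1 (1.56).

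A protein-coding 5′ end lay within 500 bases of 180 of 505 members (35.6%), next to 35.2% of all merged regions. That was more than in partly lost regions (125 of 565, 22.1%; odds ratio 1.95, 1.48 to 2.58, adjusted exact p = 3.1e-06), although in the arms alone the odds ratio was 1.38 and did not pass. It was less than in zmp-2-only regions (180 of 414, 43.5%; odds ratio 0.720, 0.547 to 0.948, adjusted exact p = 0.0233), which also did not hold in the arms alone (0.761). Against kept regions (1914 of 4138, 46.3%) the odds ratio was 0.644 (0.528 to 0.783, adjusted exact p = 1.3e-05), but with 500 bases at the summit in place of the whole region, which removes the difference in width, it was 1.09 (adjusted exact p = 0.473). With strata of the zmp-2 replicate 1 fold enrichment it was 0.910 and with 5′ ends within 1000 bases 0.844, neither of which passed. The WT replicate subsets had 35.8% and 35.5% (odds ratio 1.013, 0.670 to 1.53, adjusted exact p = 1.00).

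By the position of the strongest zmp-2 summit, 136 members (26.9%) were in the 1 kb upstream of a protein-coding gene, 86 (17.0%) in the 1 kb downstream and 170 (33.7%) farther from any. Coding sequence held 30 (5.94%), introns 24 (4.75%), untranslated exons 15 (2.97%), pseudogenes 32 (6.34%) and non-coding genes 12 (2.38%). Over all merged regions 19.95% were upstream, 13.1% downstream and 34.9% farther, with 7.18% in coding sequence, 3.80% in introns, 2.198% in untranslated exons, 16.9% in pseudogenes and 1.93% in non-coding genes. None of these differences was tested. The subsets were unlike in these shares, which were not tested: coding sequence held 22 of 159 summits (13.8%) with the WT peak in replicate 1 and 8 of 346 (2.31%) with it in replicate 2. Within 1 kb of the nearest 5′ end, 170 members (33.7%) were upstream of it and 40 (7.92%) downstream, against 25.3% and 8.44% of all merged regions 29.4% and 9.40% of kept, 40.3% and 10.9% of zmp-2-only and 11.3% and 6.90% of partly lost regions. The 5′ end of an annotated pseudogene was within 500 bases of 43 members (8.51%) and of 22.1% of all merged regions.

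H3K4me3 was rare on members. A peak overlapped 29 of 505 (5.74%), against 10% of all merged regions and 653 of 4138 kept regions (15.8%; odds ratio 0.325, 0.213 to 0.478, adjusted exact p = 1.4e-10). Partly lost regions had 55 of 565 (9.73%; odds ratio 0.565, 0.341 to 0.919, adjusted exact p = 0.0233), a call not held with 500 bases at the summit (0.587), with strata of GC content (0.689) or with a reciprocal overlap of 50% (0.699). With 500 bases at the summit, which removes the difference in width, a peak lay on 2.97% of members and 6.55% of kept regions. It lay on 4.86% of all merged regions, and the call against kept regions held. Counting H3K4me3 peaks within 1 kb changed the odds ratio against kept regions to 0.521, which passed. It turned that against partly lost regions to 1.33 and the one against zmp-2-only regions to 0.748, neither of which passed. The difference from zmp-2-only regions (16 of 414, 3.86%) did not pass (odds ratio 1.52, 0.783 to 3.03, adjusted exact p = 0.235), nor did that between WT replicates (8.81% and 4.34%, odds ratio 2.13, 0.925 to 4.87, adjusted exact p = 0.0763). The latter passed at a q-value of 0.01 (2.30) and without zmp-2 replicate 1 (2.58), and was 1.275 in the arms alone. Without zmp-2 replicate 2 the odds ratio against zmp-2-only regions was 1.006. An H3K4me3 peak lay beside a further 126 members (24.95%), within 1 kb but not on them, as it did beside 30.2% of kept, 33.3% of zmp-2-only and 15.2% of partly lost regions, without a test. Of the 206 protein-coding genes whose 5′ end was within 500 bases of a member, 88 (42.7%, interval 35.9 to 49.8) had an H3K4me3 peak there. The share was 47.9% for genes near any merged region, 49.8% near kept, 47.8% near zmp-2-only and 36.6% near partly lost regions, all within that interval, and 55.4% of all 27444 protein-coding genes.

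The members on an H3K4me3 peak that ranked best were named. R10, at chr2:7874534-7875714, was nearest to SRS4 (AT2G18120), a transcription factor of the SHI-related family, and had an NRPD1-HA fold enrichment of 2.46 in WT replicate 1, 5.90 in zmp-2 replicate 1 and 8.29 in zmp-2 replicate 2. R11, at chr4:9598094-9598874, was at the 5′ end of AT4G17070, a peptidyl-prolyl isomerase gene, with 4.57, 7.61 and 7.71, and it lay on a ZMP-HA site as well. R28, at chr5:7097391-7098020, lay between the divergent 5′ ends of TSL (AT5G20930), the TOUSLED protein kinase needed for normal flower development, and EIF2 BETA (AT5G20920), a subunit of a translation initiation factor. R28 had 4.19 in WT replicate 1, 4.82 in zmp-2 replicate 1 and 7.61 in zmp-2 replicate 2. R24, at chr3:873160-873816, had 4.26 in WT replicate 2, 4.93 in zmp-2 replicate 1 and 7.73 in zmp-2 replicate 2. In these 4 regions both mutant values were above the WT value, which their choice by rank in the zmp-2 lists favours.

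Further protein-coding genes had a 5′ end beside a well ranked member. R7, at chr5:7478274-7478996, was between INV-E (AT5G22510), a neutral invertase that cleaves sucrose, and AT5G22520, and its summit lay in the microRNA precursor MIR8173. It had 3.92 in WT replicate 1, 6.85 in zmp-2 replicate 1 and 9.02 in zmp-2 replicate 2. R16, at chr4:10247854-10248465, was upstream of WAVE5 (AT4G18600), a SCAR family regulator of actin, with 3.04, 6.23 and 7.18 in the same lists. R30, at chr4:8633076-8633631, was upstream of CYP97B3 (AT4G15110), a cytochrome P450, with 3.08, 4.78 and 6.98. R31, at chr3:17332143-17332742, was upstream of FTSH7 (AT3G47060), of a family of membrane-bound proteases, with 5.04, 7.71 and 6.30. R38, at chr5:6159496-6160112, was upstream of the zinc finger gene AT5G18550, with 4.55 in WT replicate 2, 4.46 in zmp-2 replicate 1 and 8.52 in zmp-2 replicate 2. R38 was the only one of these with a mutant value under that of WT, in zmp-2 replicate 1.

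Gene families were looked up by their annotation at every member. None of 33 genes of RNA-directed DNA methylation and DNA methylation, and none of the 10 floral genes, had a 5′ end within 500 bases of a member. Of all 8688 merged regions, only 5 (0.0576%) were near a gene of the first list and 0 near a floral gene. SUVH9, in the first list, was 633 bases from R1 and so beyond that distance. Genes found by annotation words for nucleotide-binding leucine-rich repeat (NLR) immune receptors were near 4 members (0.792%) and near 25 of the 8688 regions (0.288%). The exact interval of the member share, 0.216% to 2.016%, included the share of all regions. NLR genes were near 4 of 565 partly lost (0.708%), 13 of 4138 kept (0.314%) and 1 of 414 zmp-2-only regions (0.2415%). Differences between these NLR shares were not tested. The NLR genes near the 4 members were AT4G09420, AT4G11340, AT5G38350 and AT4G27190. The annotations of AT4G09420 (TIR-NBS class) and AT4G27190 (NB-ARC domain-containing) do not name leucine-rich repeats. F-box genes, which give substrate specificity to ubiquitin ligases, were near 6 members (1.19%) and 1.51% of all regions. Genes found by annotation words for cell wall breakdown were near 4 members (0.792%) and 0.886% of all regions. For 2 of these 4 members the gene, AT2G47340 or AT1G54980, is annotated in the invertase and pectin methylesterase inhibitor superfamily and not as a degrading enzyme. Genes for small secreted peptides were near 4 members (0.792%) and 0.944% of all regions, among them LCR62 at R286 and LCR16 at R295, both annotated as low-molecular-weight cysteine-rich, and 2 thionin family genes at R193. No gene with the word defensin in its annotation was near a member, and such genes were near 22 of all merged regions (0.253%). SERK2 (AT1G34210), a receptor kinase of anther development, was near R351, and AGL85, a MADS-box gene, near R487. Receptor kinase genes were near 0.198% of members and 0.403% of all regions, and MADS-box genes near 0.198% and 0.230%. AT3G07775 and AT5G43755, genes looked up whatever their values, each had 1 merged region, which was zmp-2-only and not partly gained.

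Base composition separated the subsets. The 200 bases at the summit had a median GC content of 39% (quartiles 34 to 43) in the replicate 1 subset and 29% (26 to 32.5) in the replicate 2 subset, against 36.5% in kept and 31.5% in zmp-2-only regions and 36.0% over the 5 chromosomes. Below 35% GC were 43 of 159 members (27.0%) with the WT peak in replicate 1 and 281 of 346 (81.2%) with it in replicate 2. The libraries differed along the same axis in regions that they all called. In kept regions the median log2 ratio of WT replicate 2 to WT replicate 1 was 0.32 below 25% GC and -0.71 at 45% or more. For zmp-2 replicate 2 against zmp-2 replicate 1 these values were 0.82 and -0.11. Regions called in both replicate 2 lists only had a median of 28.5% GC, and those called in both replicate 1 lists only 46.5%. The median log2 ratio of zmp-2 to WT in kept regions was also lower at high GC. It went from -0.15 below 25% GC to -0.57 at 45% or more in replicate 1, and from 0.49 to 0.08 in replicate 2. The library difference in GC therefore moved with replicate number in both genotypes and with genotype at both replicate numbers. Its part in the choice of members was not tested.

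**Figure D5:**
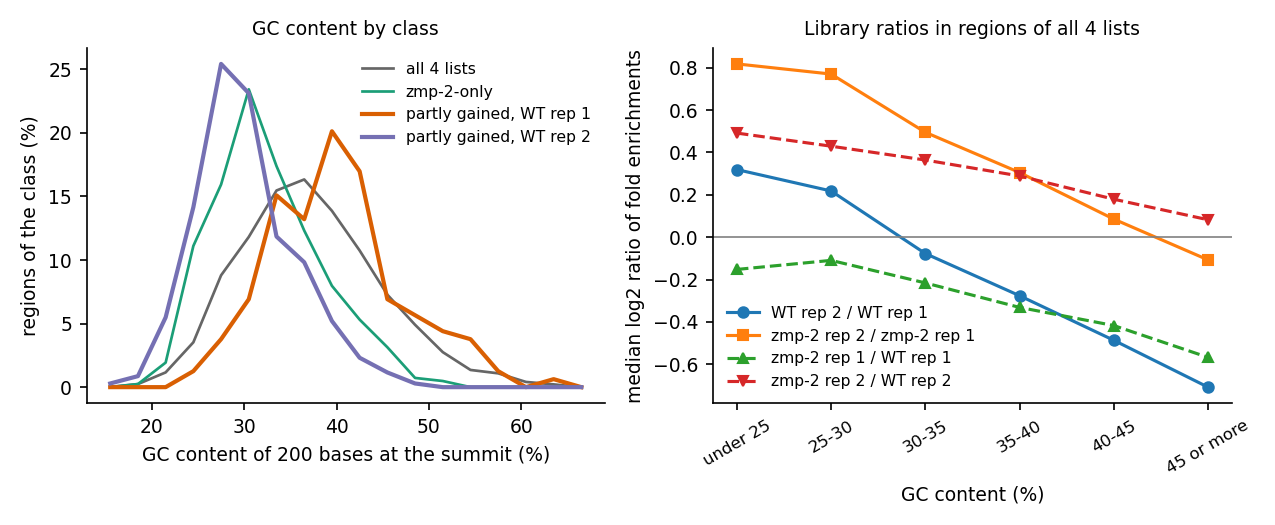
Left, distribution of the GC content (%) of 200 bases at the summit in 4 region classes, as the share of each class (%). Right, median log2 ratio of NRPD1-HA fold enrichments between libraries in the 4138 regions of all 4 lists, by GC content, falling from 0.32 to -0.71 for WT replicate 2 over replicate 1 and from 0.82 to -0.11 for zmp-2 replicate 2 over replicate 1. The dashed lines, zmp-2 over WT, go from -0.15 to -0.57 in replicate 1 and from 0.49 to 0.08 in replicate 2.

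Repeated sequence was as frequent in members as over all merged regions. A window had at least 1 further match in the genome at 377 of 505 members (74.7%), 74.6% of all merged regions, 74.96% of kept and 52.9% of zmp-2-only regions. At least 10 further matches were found for 187 members (37.0%) and 40.3% of all merged regions. By subset, without a test, it was so for 159 of 346 members with the WT peak in replicate 2 (46.0%), for 28 of 159 with it in replicate 1 (17.6%) and for 58 of 414 zmp-2-only regions (14.01%). Among themselves, 118 members (23.4%) fell into 36 groups that matched each other. They were 105 of 346 replicate 2 members (30.35%) and 13 of 159 replicate 1 members (8.18%). A larger subset has more chances to match within itself, and no such share was worked out for other region classes. The largest group had 19 members on 4 chromosomes, all with the WT peak in replicate 2, a median of 27% GC and a median of 236 matches in the genome. Its median fold enrichment was 2.39 in zmp-2 replicate 1 and 4.31 in zmp-2 replicate 2. The next held 8 members, again all with the WT peak in replicate 2, with a median of 25.3% GC. The pair with the longest match is printed for each of these groups, with the matching stretch in capitals, because these are the largest groups. The rest of the members matched no other member in this way.
R382 (chr5:5647909-5648108): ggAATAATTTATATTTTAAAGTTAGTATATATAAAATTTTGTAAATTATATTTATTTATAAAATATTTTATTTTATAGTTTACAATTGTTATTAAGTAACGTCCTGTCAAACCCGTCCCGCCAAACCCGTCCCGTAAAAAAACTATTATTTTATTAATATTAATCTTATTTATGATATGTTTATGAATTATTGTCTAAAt
R391 (chr1:4770142-4770341): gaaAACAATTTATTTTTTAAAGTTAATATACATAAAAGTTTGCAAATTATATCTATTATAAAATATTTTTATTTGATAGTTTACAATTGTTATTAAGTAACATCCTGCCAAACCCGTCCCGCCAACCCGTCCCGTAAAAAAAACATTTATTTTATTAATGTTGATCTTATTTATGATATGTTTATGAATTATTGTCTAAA
R276 (chr2:8046040-8046239): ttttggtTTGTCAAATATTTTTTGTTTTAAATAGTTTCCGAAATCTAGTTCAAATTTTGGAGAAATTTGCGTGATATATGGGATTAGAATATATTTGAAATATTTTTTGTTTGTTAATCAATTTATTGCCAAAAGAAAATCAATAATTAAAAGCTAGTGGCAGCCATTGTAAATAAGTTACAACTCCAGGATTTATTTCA
R418 (chr1:20509200-20509399): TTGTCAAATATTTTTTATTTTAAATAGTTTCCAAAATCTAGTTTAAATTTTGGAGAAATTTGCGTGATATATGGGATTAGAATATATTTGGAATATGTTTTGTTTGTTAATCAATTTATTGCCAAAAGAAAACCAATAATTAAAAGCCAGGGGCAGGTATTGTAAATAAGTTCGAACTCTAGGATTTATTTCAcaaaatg
R382 and R391 matched at 91.0% identity over 199 bases, and R276 and R418 at 93.3% over 193. R382 had a fold enrichment of 2.91 in WT replicate 2, 2.03 in zmp-2 replicate 1 and 3.78 in zmp-2 replicate 2, and R391 had 1.79, 1.96 and 3.25. R276 had 2.05, 2.499 and 3.15, and R418 2.52, 1.85 and 4.48. In R382 and R418 the value of zmp-2 replicate 1 was under that of WT replicate 2 and the value of zmp-2 replicate 2 above it. Reads of such repeats can align to more than 1 place, so that the copy that gave the signal is uncertain.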

How the data were processed

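ChIP-seq was analysed from 11 peak lists of 22 samples, 1 list for each immunoprecipitated library, the rest being inputs. Group and replicate of each library follow the labels. Per the study's methods and the submitters' processing notes, the authors trimmed reads with Trim Galore 0.4.3, aligned them to TAIR10 with Bowtie2 2.2.9 and called peaks with MACS2 2.2.6 against input, which input for which library being not given in the sources used here. The deposited lists give a score (other columns were not used), the fold enrichment at the summit as a linear ratio, and −log10 p-values and −log10 q-values. Every deposited peak passed a q-value of 0.05. A list records calls and not read counts, so a region without a peak may hold signal under the threshold. Fold enrichment is (pileup + 1) / (background + 1) and the p-value is the Poisson tail, from which background coverage was solved. This gave back the p-value deposited by the authors to within 1% at 99.7% to 100% of peaks in the NRPD1-HA and H3K4me3 lists and at 91.6% or more of those in the others. This was tested on simulated data.

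The members and gene lists were chosen with earlier results of these data known. Named regions were the 5 members of each subset, the 5 on a ZMP-HA site and the 5 on an H3K4me3 peak with the best worse rank in the zmp-2 lists, and the 3 on each side of the WT threshold. Named genes came from the 20 protein-coding genes with a 5′ end within 500 bases of the best ranked members and from gene lists looked up at every member. SUVH9 and the repeated pairs were singled out after their values were seen. RefSeq TAIR10.1 supplied sequence and genes (0 peaks ran past the end of one of its 5 nuclear chromosomes). Pericentromeric windows were those where the protein-coding gene density, smoothed over 1 Mb in steps of 100 kb, was under 50% of the chromosome median. Overlap meant at least 1 base. Tests used scipy 1.17.1 and statsmodels 0.14.6, and matches blastn 2.17.0 (80% identity over at least 100 bases). Alternatives covered thresholds, overlap, list length, control removal, left-out libraries, merging, windows, arms and strata.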

Additional observations from a re-analysis of the deposited data

How the results depend on the processing

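The number of partly gained regions was 505, between 396 and 520 under changed thresholds, overlap, list length, control removal and merging. It was 596 to 1208 without 1 of the zmp-2 replicates, the 1208 being without zmp-2 replicate 1, and 510 to 513 without 1 of the control replicates. Leaving out a WT replicate has no value, since the rule needs exactly 1 of them, and partial loss has none without a zmp-2 replicate. Of 252 alternative odds ratios under 22 settings, 219 kept their direction and call, 14 lost the call, 7 gained it and 12 turned, none of which passed in both. The 4 ZMP-HA site comparisons, H3K4me3 against kept regions and pericentromeric windows against partly lost regions kept both throughout. Strata of GC content and of peak strength were chosen after seeing the data. The cause of these changes was not tested.

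Members with a WT peak in replicate 1 were compared with those in replicate 2. The pericentromeric odds ratio became 1.78 at a q-value of 0.01, 2.47 at a gene density under 25%, 2.08 with strata of fold enrichment and 0.626 with strata of GC content, and ranged from 1.42 to 2.13 without 1 replicate. That of gene 5′ ends became 0.964 at a q-value of 0.01, 0.984 where presence alone needed that q-value, 0.755 within 1000 bases and 0.904 with strata of fold enrichment, and ranged from 0.985 to 1.035 without 1 replicate. That of H3K4me3 gained the call at a q-value of 0.01 (2.30) and without zmp-2 replicate 1, and ranged from 1.85 to 2.58 without 1 replicate.

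Against kept regions, the pericentromeric odds ratio became 0.981 with a reciprocal overlap of 50% and 0.863 with strata of GC content, and ranged from 0.652 to 1.011 without 1 replicate. That of gene 5′ ends became 1.09 with 500 bases at the summit, 0.844 within 1000 bases and 0.910 with strata of fold enrichment. Against zmp-2-only regions, that of gene 5′ ends became 0.802 with a reciprocal overlap, 0.761 in the arms and 0.762 with strata of fold enrichment, and ranged from 0.707 to 0.851 without 1 replicate. The pericentromeric value ranged from 1.21 to 1.97 without 1 replicate and lost the call without zmp-2 replicate 1, and H3K4me3 became 0.944 with 500 bases at the summit and 0.748 within 1 kb. Against partly lost regions, gene 5′ ends became 1.38 in the arms, and H3K4me3 became 0.699 with a reciprocal overlap, 0.587 with 500 bases at the summit, 0.689 with strata of GC content and 1.33 within 1 kb. With the replicate number as a block, the comparison with partly lost regions gave odds ratios of 0.0683 for ZMP-HA sites, 0.156 for pericentromeric windows, 1.97 for gene 5′ ends and 0.486 for H3K4me3, and changed no call. Peak lists hold no values for uncalled regions, so a missing WT call cannot be told apart from a weak signal.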
